A study of Mus musculus with 12 samples.

Results

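Heat shock and chaperone genes, 10 in number, were followed across 3 groups of brain macrophages by bulk RNA-seq. The 10 members, of 56735 gene names in the count table, were chosen by name, with earlier results of these data known. They are Hspa1a, Hspa1b, Dnajb1, Hsph1 and Hsp90aa1, which are the inducible cytosolic members, and Hspa8, Hsp90ab1, Hspa5, Hspd1 and Hspe1, which are the constitutive or organelle members. All 10 passed the filter on low counts. The question was whether inducible chaperones, read against constitutive ones as a measure of cell stress, differ between the groups. The study reads the groups as macrophages never depleted, those that survived or regrew after depletion, and those of another origin. Origin itself was not measured in these counts. The mice were Mrc1CreERT2/CreERT2:R26tdT/tdT. In these animals a tamoxifen-inducible Cre sits at the Mrc1 locus, which encodes the mannose receptor CD206, and marks cells that express CD206 at the time of tamoxifen, and their progeny, with the reporter tdTomato (tdT). The mice, with labels that begin with F or M, received tamoxifen and, 4 weeks later, vehicle or the CSF-1 receptor inhibitor BLZ945 (200 mg/kg) for 7 days, and macrophages of the brain without choroid plexuses (subdural CNS-associated macrophages, sdCAMs, of the perivascular space and leptomeninges) were sorted 8 weeks after treatment ended. The 3 groups were tdT+ cells of vehicle mice, tdT+ cells of BLZ945 mice and tdT- cells of BLZ945 mice, each with 4 libraries labelled F1, F2, M1 and M2. Per the study, tdT+ and tdT- cells alike were sorted as CD206+. Each BLZ945 mouse gave one library of either population under a shared label, whereas the vehicle mice were other animals. Per the study's methods, brains were digested enzymatically in a warm shaker before sorting.

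Chaperones of the Hsp70 family hold unfolded stretches of protein and release them under control of ATP. J-domain proteins such as Dnajb1 bring them their substrates, and nucleotide exchange factors such as Hsph1 (Hsp110) reset them. Hsp90 proteins act later, on near-native clients such as kinases and receptors. In the cytosol, Hspa8 and Hsp90ab1 are made at all times, while Hspa1a, Hspa1b and Hsp90aa1 are switched on by heat shock factor 1 (HSF1), which binds inverted repeats of a short unit called heat shock elements (HSE). Hspa5 (BiP) is the Hsp70 of the endoplasmic reticulum (ER) and is induced by the unfolded protein response through the ER stress response element (ERSE). Hspd1 and Hspe1 form the folding chamber of mitochondria and its lid. Inducible Hsp70 transcripts can also rise while tissue is being handled, which is why they are often read as a sign of stress in sorted cells.

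Promoter windows of RefSeq (GRCm38.p6, 250 bases before to 50 bases after a start) were found for 7 of the 10 members, and none was found for Hspa8, Hsp90aa1 and Hsp90ab1. The motifs searched on both strands were a 2-unit HSE (GAANNTTC or TTCNNGAA), a 3-unit HSE (GAANNTTCNNGAA or TTCNNGAANNTTC) and an ERSE (CCAAT, 9 bases of any kind, then CCACG). The 2-unit HSE is contained in the 3-unit HSE. Of 32851 windows of this length, 15.1% held the 2-unit HSE, 0.603% the 3-unit HSE and 0.119% the ERSE. The following stretches are shown because they carry these motifs, written 5′ to 3′ on the strand of the gene, with the matches in capitals. Those of Hspa1a (chr17:34972157-34972306, minus strand), Hspa1b (chr17:34959239-34959388, minus strand) and Hspa5 (chr2:34771940-34772089, plus strand) are the 150 bases before the start. Those of Hsph1 (chr5:149636287-149636316, minus strand) and Hspe1 (chr1:55088053-55088082, plus strand) are 30 bases around the 3-unit HSE.
Hspa1a: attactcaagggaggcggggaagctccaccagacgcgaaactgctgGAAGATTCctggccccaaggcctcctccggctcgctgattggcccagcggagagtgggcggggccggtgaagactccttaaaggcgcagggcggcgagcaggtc
Hspa1b: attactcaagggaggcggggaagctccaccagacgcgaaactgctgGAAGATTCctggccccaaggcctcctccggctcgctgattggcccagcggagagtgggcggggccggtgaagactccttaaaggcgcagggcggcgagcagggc
Hspa5: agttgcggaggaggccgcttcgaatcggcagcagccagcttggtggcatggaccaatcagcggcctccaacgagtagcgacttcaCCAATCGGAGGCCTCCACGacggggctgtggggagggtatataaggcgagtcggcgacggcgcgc
Hsph1: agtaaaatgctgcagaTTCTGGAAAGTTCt
Hspe1: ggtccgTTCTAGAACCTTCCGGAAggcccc

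In these letters Hspa1a and Hspa1b, which lie 9951 bases apart on chromosome 17 and encode nearly the same Hsp70, each held one 2-unit HSE and differed by a single base, T149G, counted from 1 at the 5′ end of the stretch. Over the whole windows of 300 bases they differed at 4 positions. Hsph1 held the 3-unit HSE downstream of its start, and Hspe1 held 2 overlapping 3-unit HSEs upstream. Hspd1 lies head to head with Hspe1, one of its windows shared 285 bases with that of Hspe1, and the same HSEs were read there. The ERSE was found in the window of Hspa5 alone among the members. No match to these letters was found in the windows of Dnajb1.

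The 12 libraries held between 19969308 and 23395058 counts. All 18 pairs of replicates differed by more than sampling noise (chi-square of at least 47.6 for each degree of freedom). All 10 sdCAM markers and all 6 microglia markers on the lists had counts in every library. The summed level of the 8 neutrophil markers was 21954 CPM (counts scaled to the depth of the library) in the tdT- library F2 and at most 3.50 CPM in the other 11, so this library stood apart, and results that rest on it are given with and without it. The microglia markers summed to between 10174 and 20850 CPM in tdT- libraries, between 3920 and 4962 CPM in BLZ945 tdT+ libraries and between 2364 and 3759 CPM in vehicle libraries. Summed sdCAM markers lay between 4241 and 6279 CPM in tdT- libraries and between 11228 and 15048 CPM in tdT+ libraries. Mitochondrial transcripts made up between 0.702% and 1.13% of vehicle libraries, between 0.515% and 0.589% of BLZ945 tdT+ libraries and between 0.324% and 0.631% of tdT- libraries. The library names set vehicle apart from BLZ945 ("pre" and "Post"), and the labels do not say what these words mean. If they name separate times of isolation, a difference from vehicle cannot be told apart from one in that time. In bulk samples, fewer cells of a type and less RNA per cell cannot be told apart either.

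Per length, the members fell into 3 tiers. Levels are given here as TPM, computed from the counts and the exon lengths in the table and scaled to library depth. Hspa5 had the highest level, 1182 ± 241 TPM (SD over 12 libraries), which put it at rank 87 of 13724 genes tested. Hspa8 followed with 745 ± 157 TPM and Hsp90ab1 with 734 ± 197 TPM, and the ranges of these 3 genes over libraries overlapped. The second tier held Hspd1 with 164 ± 30.8 TPM, Dnajb1 with 106 ± 29.0 TPM, Hspe1 with 105 ± 19.2 TPM and Hsp90aa1 with 85.9 ± 20.9 TPM, whose ranges overlapped each other and lay below the lowest library of the first tier. The third tier held Hsph1 with 17.7 ± 8.24 TPM, Hspa1b with 12.4 ± 10.6 TPM and Hspa1a with 10.3 ± 7.09 TPM. Their highest library, 35.7 TPM for Hspa1b, lay below the lowest library of any gene of the second tier, which was 61.6 TPM for Dnajb1. In every group, cytosolic Hsp70 transcript was therefore mostly Hspa8. The counts of Hspa1a and Hspa1b may be too low, since 58.8% of the 50-base runs of the Hspa1a transcript and 62.3% of those of Hspa1b occur in both (GENCODE M21 transcripts) and reads that map to more than one place were not counted. No other member shared a run of this length with another member.

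**Figure D1:**
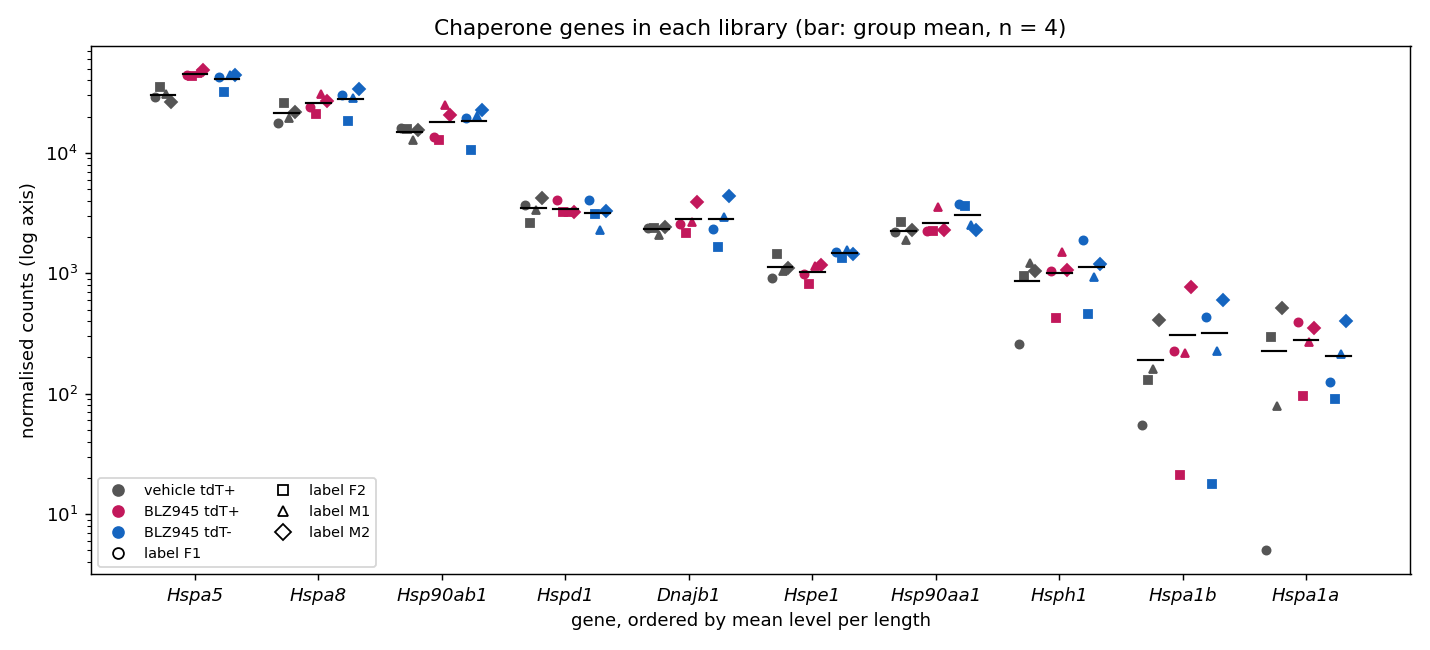
Normalised counts (log axis) of the 10 chaperone genes in each of the 12 libraries, with bars for the group means (n = 4) and symbols for the mouse labels, which in vehicle mice name other animals. Hspa5 lies higher in all 4 BLZ945 tdT+ libraries than in any vehicle library, and Hspa1a and Hspa1b spread more widely than the other genes within every group.

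Of the members, 0 of the inducible ones and 1 of the constitutive ones, Hspa5, differed between groups at a DESeq2 adjusted p of at most 0.05 (called). Between tdT- and tdT+ cells of BLZ945 mice, 0 of 10 members were called, against 6.54% of all genes tested, and 1 had an unadjusted p under 0.05. The edgeR test, which called 2.75% of all genes, also called 0. In tdT+ cells of BLZ945 mice against vehicle, 1 of 10 was called, against 0.961% of all genes, and in tdT- cells against vehicle, 1 of 10, against 6.81% of all genes. With edgeR both of these calls were lost, at shares of 0.0656% and 3.25% over all genes. No member changed by the log2 fold change of 1 that, with the adjusted p, defined a differentially expressed gene (DEG) in the study, against shares of 2.31%, 0.169% and 2.57% of all genes in the same order of comparisons. The median unshrunken log2 fold change of the 10 members was 0.04 between tdT- and tdT+ cells, 0.27 in BLZ945 tdT+ cells against vehicle and 0.37 in tdT- cells against vehicle, and that of all genes tested was 0.01, 0.03 and 0.03. The comparisons share libraries, so they are not independent of each other. Fold changes below are unshrunken unless stated, with their standard error (SE).

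**Figure D2:**
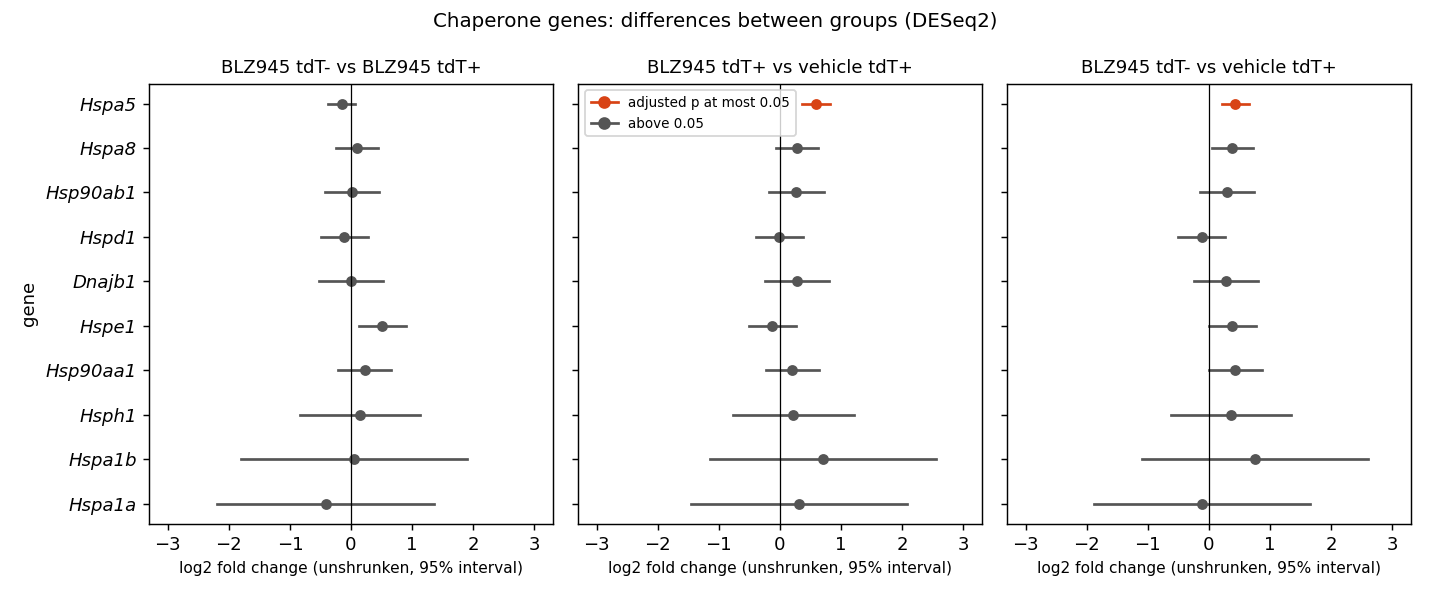
Unshrunken log2 fold changes (points) with 95% intervals (lines) of the 10 members in the 3 comparisons, with genes at an adjusted p of at most 0.05 in orange. Only Hspa5 against vehicle is orange, and the intervals of Hspa1a and Hspa1b span from below -1 to above 1 in every comparison.

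The inducible Hsp70 genes varied most, and they did so within each group. Hspa1a, one of the near-identical heat-induced Hsp70 genes, had 5.01, 298, 79.6 and 515 normalised counts in the vehicle libraries F1, F2, M1 and M2. In BLZ945 tdT+ libraries it had 392, 94.9, 267 and 354, and in tdT- libraries 124, 90.4, 212 and 404, in the same order. The vehicle group held both the lowest and the highest library, so the groups overlapped fully, and the value of vehicle F1 rests on 5 counts. Highest and lowest library differed 103-fold. Its log2 fold change was -0.42 ± 0.90 (SE) between tdT- and tdT+ cells and 0.30 ± 0.90 in BLZ945 tdT+ cells against vehicle (DESeq2 adjusted p = 0.930 and 0.9997).

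Hspa1b, its near-identical copy, had 55.1, 131, 161 and 409 normalised counts in vehicle libraries, 228, 21.2, 216 and 765 in BLZ945 tdT+ libraries and 432, 17.9, 227 and 597 in tdT- libraries. Both libraries of the BLZ945 mouse F2 were the lowest of all 12, and both libraries of M2 were the highest of all. The log2 fold change was 0.05 ± 0.94 (SE) between tdT- and tdT+ cells, with a 95% interval from -1.80 to 1.90, which spans from 0.287-fold to 3.74-fold.

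Hsph1, the Hsp110 exchange factor, ranged from 261 to 1228 normalised counts in vehicle, from 429 to 1509 in BLZ945 tdT+ and from 458 to 1901 in tdT- libraries. Its log2 fold changes lay between 0.14 and 0.36 with an SE of 0.50. Dnajb1, the J-domain protein that works with inducible Hsp70, was the steadiest of the inducible genes in vehicle, at 2372, 2386, 2091 and 2431 normalised counts. It had 2552, 2160.3, 2660.0 and 3883 in BLZ945 tdT+ libraries and 2338, 1639, 2944 and 4363 in tdT- libraries, where mouse M2 was the highest in both populations and mouse F2 the lowest in both. The group means differed by 0.00 ± 0.27 (SE) on the log2 scale between tdT- and tdT+ cells.

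Hsp90aa1, the inducible cytosolic Hsp90, had 2205, 2662, 1874 and 2302 normalised counts in vehicle libraries, 2258, 2254, 3588 and 2309 in BLZ945 tdT+ libraries and 3759, 3630.4, 2532 and 2278 in tdT- libraries. The high tdT- libraries were those of the F mice and the high tdT+ library was M1, so the order of the mice differed between populations. Against vehicle, the log2 difference of tdT- cells was 0.43 ± 0.22 (SE, adjusted p = 0.310), with a 95% interval from -0.0018 to 0.87. Without the tdT- library F2, which held neutrophil transcripts, it was 0.33 ± 0.24 (DESeq2 adjusted p = 0.524).

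The constitutive cytosolic members were higher on average in both BLZ945 groups than in vehicle, but with groups that overlapped. Hspa8, the housekeeping Hsp70, had 17870.1, 25862, 19556 and 21884 normalised counts in vehicle libraries, 24264, 21151, 31091 and 27185 in BLZ945 tdT+ libraries and 30107, 18414, 28694 and 34022 in tdT- libraries. In 3 of the tdT- libraries the count lay above every vehicle library, and F2, the library with neutrophil transcripts, lay below 3 of them. The log2 fold change of tdT- cells against vehicle was 0.39 ± 0.17 (SE, DESeq2 adjusted p = 0.212). Without that library it was 0.53 ± 0.14 and Hspa8 was called (adjusted p = 0.00507), in a fit that called 8.25% of all genes. Hsp90ab1, the constitutive Hsp90, had between 12914 and 15997 normalised counts in vehicle, between 12908 and 25049 in BLZ945 tdT+ and between 10556 and 22889 in tdT- libraries. The M mice were the highest in both BLZ945 populations. The SD was 1424 in vehicle, 5838 in BLZ945 tdT+ and 5398 in tdT- libraries (n = 4), and the adjusted p was at least 0.629 in all 3 comparisons.

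Hspa5 was the only member called by DESeq2 with all libraries. The gene lies on chromosome 2, from 34661982 to 34667559 on the plus strand (GRCm39). It had 29050.4, 35156, 30750.3 and 26459 normalised counts in the vehicle libraries F1, F2, M1 and M2, 44026, 43584, 46052 and 48899.8 in the BLZ945 tdT+ libraries, and 42877, 31927, 44580.3 and 44734 in the tdT- libraries. Every BLZ945 tdT+ library lay above every vehicle library, as was the case for 3.55% of all genes in this direction. In tdT- cells F2 fell among the vehicle libraries and the other 3 lay above them. The level rose 1.504-fold in BLZ945 tdT+ cells (95% interval from 1.29 to 1.76, log2 fold change 0.59 ± 0.12 SE, shrunken 0.54, DESeq2 adjusted p = 1.37e-04) and 1.35-fold in tdT- cells (interval from 1.16 to 1.58, log2 0.43 ± 0.12, shrunken 0.40, adjusted p = 0.00468). The edgeR test gave log2 fold changes of 0.58 and 0.40 with an adjusted p of 0.207 and 0.0981, neither of them a call. Without the tdT- library F2, which held 31927 normalised counts of Hspa5, DESeq2 gave 0.59 ± 0.08 (adjusted p = 3.97e-09) and 0.53 ± 0.09 (adjusted p = 4.88e-07), with 1.58% and 8.25% of all genes called. F2 belongs to neither group of the first comparison but enters the estimate of the spread, and the log2 fold change there stayed at 0.59. The edgeR test then called Hspa5 in both (adjusted p = 0.0336 and 0.00997), with 0.0729% and 3.13% of all genes called. That edgeR fit was added after seeing the data. Between the populations of BLZ945 mice Hspa5 was not called, at -0.15 ± 0.12 on the log2 scale (SE, adjusted p = 0.623) and a 95% interval from -0.38 to 0.07. The mitochondrial share was lower in both BLZ945 groups than in vehicle, and its part in the difference was not tested.

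Some other genes of the ER were also called against vehicle. Of 25 ER chaperones and genes of the unfolded protein response, all of which passed the filter, 2 rose and 0 fell in BLZ945 tdT+ cells against vehicle, where 0.961% of all genes were called. Of the 25 estimates, 24 were above 0. The median log2 fold change of the list was 0.35, beside 0.03 for all genes tested, and 10 of the 25 had every BLZ945 tdT+ library above every vehicle library, against the same 3.55% of all genes. Creld2, an ER protein induced by the unfolded protein response, rose 1.92-fold, from between 773 and 1356 normalised counts to between 1873 and 2456 (log2 0.94 ± 0.20 SE, adjusted p = 8.88e-04). Hsp90b1, the Hsp90 of the ER, rose from between 14961 and 17133 to between 18075 and 27012 (log2 0.52 ± 0.15, adjusted p = 0.0414). With edgeR 0 of the 25 were called, and 11 had an unadjusted p under 0.05 in DESeq2. Without the tdT- library F2, which belongs to neither group but enters the estimate of the spread, 4 rose and 0 fell, the added genes being Herpud1 (log2 0.35 ± 0.10, adjusted p = 0.0220) and Sel1l (0.38 ± 0.10, adjusted p = 0.0233). That fit called 1.58% of all genes.

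In tdT- cells against vehicle, 7 of the 25 rose and 1 fell, where 6.81% of all genes were called. The median was 0.33 beside 0.03 for all genes, and 7 had groups without overlap in the higher direction, against 4.83% of all genes. The smallest adjusted p belonged to Edem1, a lectin-like factor of ER-associated degradation (log2 0.81 ± 0.19 SE, adjusted p = 0.00120), Creld2 (0.82 ± 0.20, adjusted p = 0.00165) and Manf, a secreted ER stress protein (0.37 ± 0.10, adjusted p = 0.00806). Manf was narrow within groups, with between 3268 and 3445 normalised counts in vehicle and between 4257 and 4515 in tdT- libraries. Without the tdT- library F2, 12 rose and 0 fell, with 8.25% of all genes called. The edgeR test called 2 of the 25, Edem1 and Creld2, with 3.25% of all genes called. Markers of microglia were also higher in tdT- cells, as given above, and their part in these differences was not tested.

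Between the populations of BLZ945 mice, 1 of the 25 rose in tdT- cells and 1 fell, where 6.54% of all genes were called. Edem1 had between 4233 and 7164 normalised counts in tdT- and between 2502 and 3657 in tdT+ libraries (log2 0.82 ± 0.19 SE, adjusted p = 9.43e-04). Sel1l, the adaptor of an ER-associated degradation ligase, had between 2882 and 3589 in tdT- and between 5013 and 5905 in tdT+ libraries (log2 -0.74 ± 0.11, adjusted p = 1.05e-08). Both were also called by edgeR (adjusted p = 0.0364 and 0.00210). The median of the list was -0.06, beside 0.01 for all genes. Of 21 genes of the list with a RefSeq window, 7 held the ERSE shown above for Hspa5 (Calr, Canx, Creld2, Dnajc3, Hsp90b1, Pdia6 and Syvn1), against 0.137% of 27025 genes with a window. Their log2 fold changes in BLZ945 tdT+ cells against vehicle ranged from 0.06 for Syvn1 to 0.94 for Creld2.

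**Figure D3:**
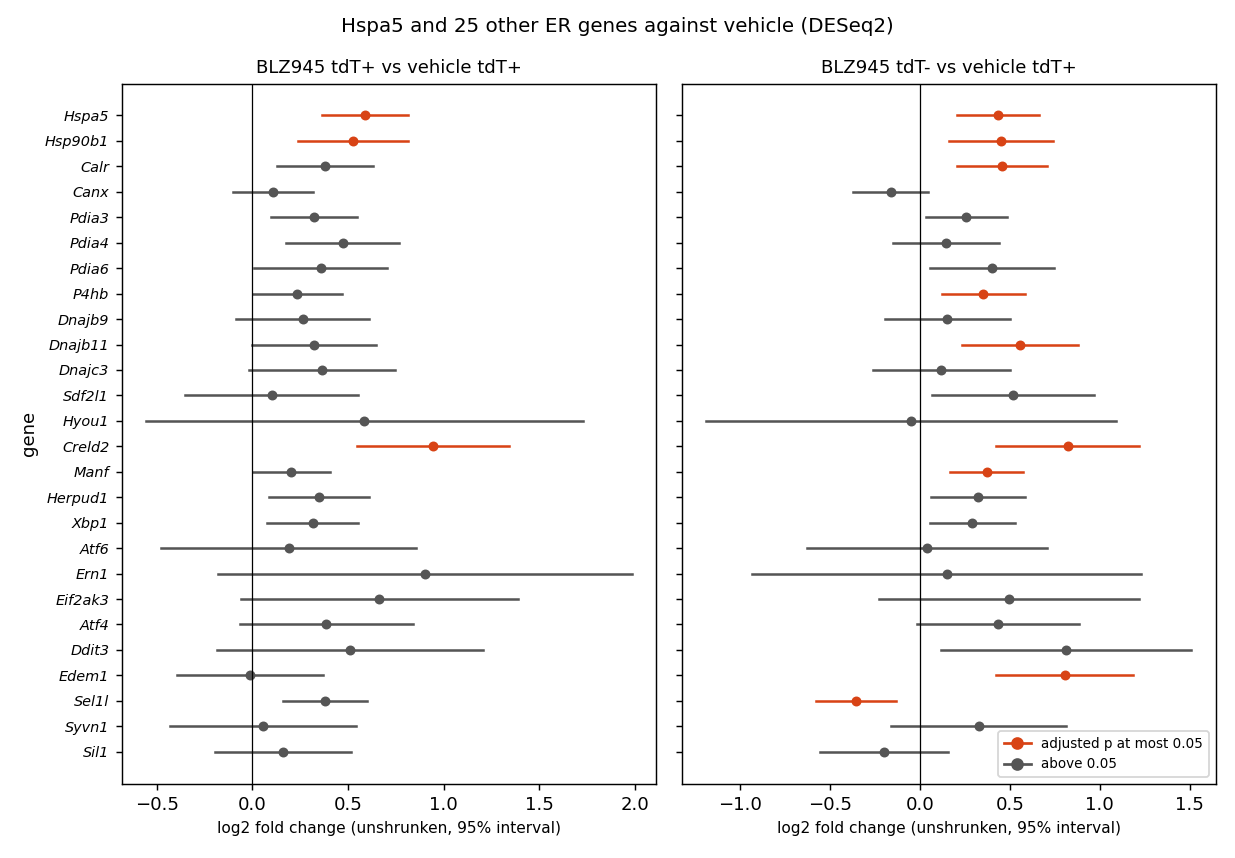
Unshrunken log2 fold changes (points) with 95% intervals (lines) of Hspa5 and 25 other ER genes in BLZ945 tdT+ and tdT- cells against vehicle, with genes at an adjusted p of at most 0.05 in orange. In tdT+ cells 24 of the 25 estimates lie above 0, and in tdT- cells Sel1l is the called gene below 0.

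Neither gene of the mitochondrial pair was called. Hspd1, the chamber protein Hsp60, had between 2631 and 4236 normalised counts in vehicle, between 3202 and 4089 in BLZ945 tdT+ and between 2311 and 4096 in tdT- libraries, and its log2 fold changes lay between -0.12 and -0.01 (SE 0.20). Hspe1, the lid protein Hsp10, had 922, 1449, 1038 and 1107 normalised counts in vehicle libraries, 987, 823, 1151 and 1169 in BLZ945 tdT+ libraries and 1502, 1353, 1577 and 1451 in tdT- libraries. All 4 tdT- libraries lay above all 4 BLZ945 tdT+ libraries, as did 4.65% of all genes. The log2 fold change was 0.51 ± 0.20 (SE), with an unadjusted p of 0.00939 and a DESeq2 adjusted p of 0.106, and it was 0.54 ± 0.22 without F2 (adjusted p = 0.117, with 7.67% of all genes called). Among the alternatives it was called only when no filter on low counts was applied (DESeq2 adjusted p = 0.0427). Over all alternatives of DESeq2 and edgeR the adjusted p reached up to 0.372. With 1 library left out of the DESeq2 fit it ranged from 0.0605 to 0.301. Hspe1 counts amounted to between 24.1% and 36.0% of Hspd1 counts in BLZ945 tdT+ libraries and to between 36.7% and 68.2% in tdT- libraries, and in vehicle the ratio ranged over both, from 24.9% to 55.1%. The exons of the pair overlap by 112 bases on opposite strands of chromosome 1 (GRCm39), at positions 55116994 to 55127402 for Hspd1 and 55127291 to 55130466 for Hspe1, and counting used no strand, so reads over that stretch could not be assigned. Of 15 other mitochondrial chaperones and proteases, 0 rose and 1 fell in tdT- against tdT+ cells, where 6.54% of all genes were called. The gene that fell was the protease Yme1l1 (log2 -0.86 ± 0.23 SE, DESeq2 adjusted p = 0.00578). Against vehicle 0 were called in either population, where 0 and 2 had an unadjusted p under 0.05 and edgeR also called 0. Without the tdT- library F2, 2 fell between the populations, with 7.67% of all genes called. They were Yme1l1 (adjusted p = 0.0100) and Hspa9, the Hsp70 of mitochondria (log2 -0.69 ± 0.22, adjusted p = 0.0255).

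The balance of inducible and constitutive chaperones overlapped between the groups. The mean log2(normalised count + 1) of the 5 inducible members minus that of the 5 constitutive or organelle members was -3.87 ± 0.92 in vehicle, -3.60 ± 0.65 in BLZ945 tdT+ and -3.69 ± 0.56 in tdT- libraries (SD, n = 4). The subtracted set holds Hspa5, which DESeq2 called higher against vehicle in both BLZ945 groups, and a rise of Hspa5 lowers this difference. It also holds Hspd1 and Hspe1, whose windows held the 3-unit HSE, so it is not a set of steady genes only. Hspa1a plus Hspa1b amounted to between 0.337% and 4.22% of Hspa8 counts in vehicle, between 0.549% and 4.12% in BLZ945 tdT+ and between 0.588% and 2.94% in tdT- libraries. These are ratios of counts, not per length, and no test was made on them. For Hsp90 the ratio of Hsp90aa1 to Hsp90ab1 lay between 13.8% and 16.9% in vehicle libraries, between 11.1% and 17.5% in BLZ945 tdT+ libraries and between 9.95% and 34.4% in tdT- libraries. The highest of these was F2, and the other 3 tdT- libraries reached at most 19.1%. Vehicle F1 was the lowest and vehicle M2 the highest of all 12 libraries in both the difference of means and the Hsp70 ratio.

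**Figure D4:**
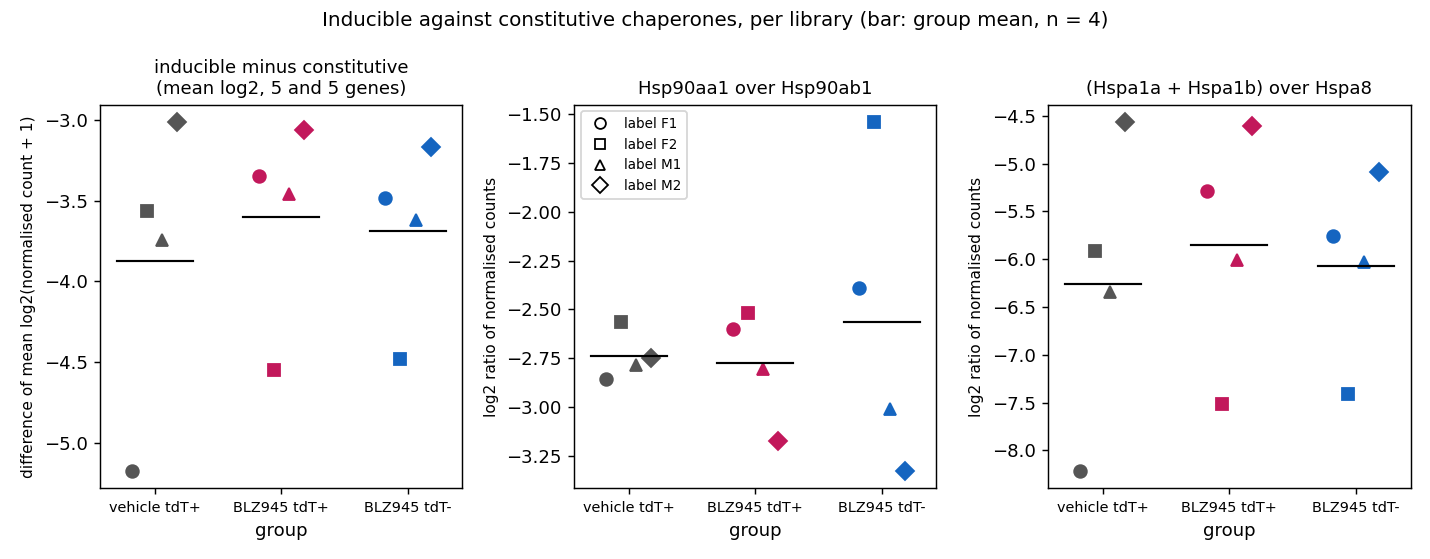
Per library, the mean log2 of inducible minus constitutive members, the log2 ratio of Hsp90aa1 to Hsp90ab1 and the log2 ratio of Hspa1a plus Hspa1b to Hspa8, with bars for the group means (n = 4). The groups overlap in all 3 panels, and the widest Hsp90 spread is that of tdT- libraries, from -3.33 to -1.54.

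The mouse labelled F2 had the lowest library of its group for most members in both of its populations. In BLZ945 tdT+ cells, the library F2 was the lowest of the 4 for 10 of 10 members, and in tdT- cells F2 was the lowest for 8 of 10, the exceptions being Hsp90aa1 and Hspd1. The gaps varied in size. In tdT+ cells F2 and F1 had 2254 and 2258 normalised counts of Hsp90aa1, and 43584 and 44026 of Hspa5. For Hspa1b, F2 had 21.2, against between 216 and 765 in the other tdT+ libraries of BLZ945 mice. F2 was the lowest library for 26.3% of all genes tested in tdT+ cells, for 23.3% in tdT- cells and for 6.24% in both. Both libraries came from the same mouse, and only its tdT- library held neutrophil transcripts at a high level, while in its tdT+ library these markers summed to 2.67 CPM. Red blood cell markers summed to 1800 CPM in its tdT- library, against at most 4.74 CPM in the other tdT- libraries. In its tdT+ library they summed to 753 CPM, and in the tdT+ library F1 to 719 CPM. Their part in the low levels was not tested. Its tdT+ library held 22879495 counts, the most of its group, and its tdT- library 21772858. Mouse F2 had 429 and 458 normalised counts of Hsph1 in its tdT+ and tdT- libraries, against between 931 and 1901 in the other 6 libraries of BLZ945 mice. Mouse M2 was the highest for 4 of 10 members in tdT+, as many as M1, and for 6 of 10 in tdT- cells. In vehicle F1 was the lowest for 5 members and M1 for 3.

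**Figure D5:**
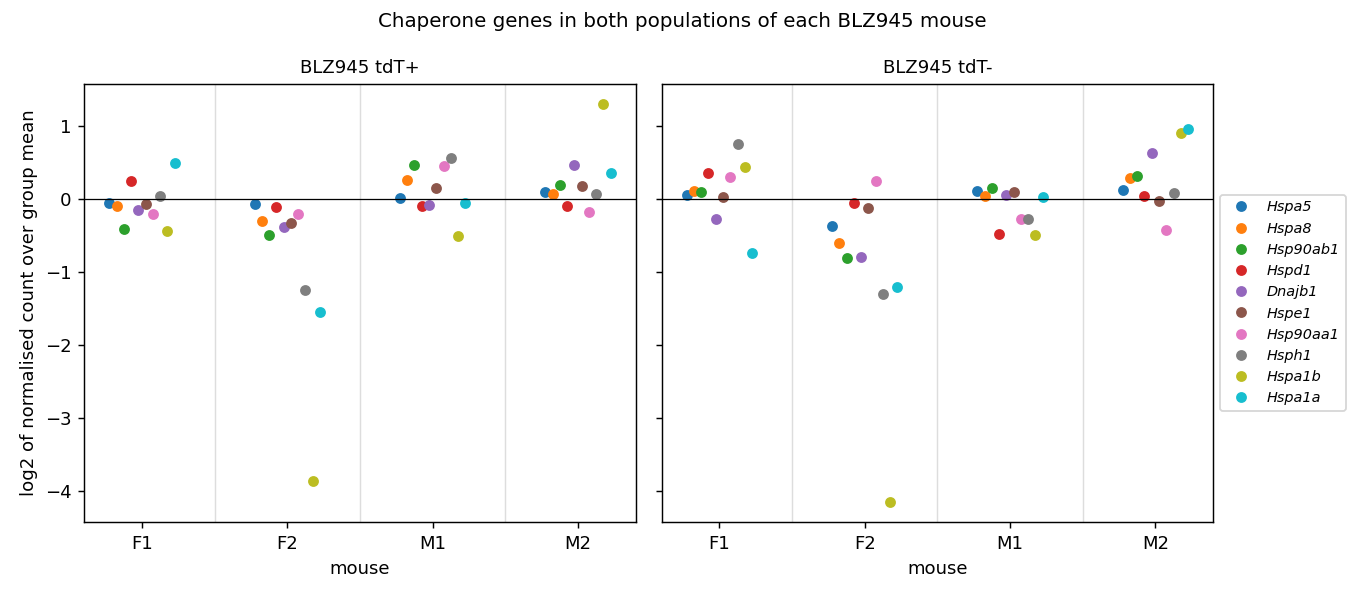
For both populations of each BLZ945 mouse, the log2 of the normalised count of each member over its group mean. The points of mouse F2 lie below 0 for 10 of 10 members in tdT+ cells, and those of Hspa1b are the lowest in both panels.

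Each group held 2 mice labelled F and 2 labelled M, and whether the letter changed an effect was tested as an interaction with edgeR. No member was called in any of the 3 comparisons, where 0% of all genes were called, and 984, 449 and 1103 genes had an unadjusted p under 0.05. The smallest p among members was that of Hsp90aa1 between tdT- and tdT+ cells, where the difference was lower by 1.01 on the log2 scale in M than in F mice (log2 -1.01, edgeR adjusted p = 0.543). Its tdT- libraries had 3759 and 3630.4 normalised counts in F mice and 2532 and 2278 in M mice. The value of 3630.4 is that of F2, the library with neutrophil transcripts, and the interaction was not fitted without it. Among BLZ945 tdT+ libraries M1 had 3588 normalised counts, against between 2254 and 2309 in the others. A DESeq2 interaction called 361, 73 and 392 genes and 0 members, with an adjusted p of 0.0554 for Hsp90aa1.

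Other partners of the heat shock system were counted by list. Of all genes, DESeq2 called 6.54% in tdT- against tdT+ cells, 0.961% in BLZ945 tdT+ cells against vehicle and 6.81% in tdT- cells against vehicle. Of 19 other heat-inducible chaperones and HSF1 targets, 18 passed the filter. The list gave 0 DESeq2 calls in tdT- against tdT+ cells and in BLZ945 tdT+ cells against vehicle, where 4 and 0 genes had an unadjusted p under 0.05, and edgeR called 0. Of 19 genes of the cytosolic Hsp70 and Hsp90 machinery, such as the co-chaperones Hspa4 and Stub1, 0 were called in any comparison, with 2, 3 and 1 at an unadjusted p under 0.05, and edgeR called 0. Among 4 heat shock factors and their binding protein, Hsf5 had 0 counts in all libraries and 3 were tested, of which 0 were called by either tool and 0 had an unadjusted p under 0.05. Hsf1 itself had 425 ± 109 normalised counts in vehicle, 580 ± 228 in BLZ945 tdT+ and 494 ± 123 in tdT- libraries (SD, n = 4).

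Some genes of the cytosolic chaperonin rose in tdT- cells. TRiC (CCT) is a ring that folds actin and tubulin, and prefoldin hands it those chains. Of 14 genes, 4 rose in tdT- against tdT+ cells and 4 in tdT- cells against vehicle, 0 fell in either, and 0 were called in BLZ945 tdT+ cells against vehicle, where 3 had an unadjusted p under 0.05. Of all genes, 6.54%, 6.81% and 0.961% were called in these comparisons, with 2.94% called higher in the first and 3.29% in the second. Microglia markers were also higher and sdCAM markers lower in tdT- cells, as given above, and their part in these differences was not tested. The median log2 fold change was 0.27 between tdT- and tdT+ cells, beside 0.01 for all genes, and 13 of 14 estimates were above 0. Pfdn6, a prefoldin subunit, rose from between 421 and 488 normalised counts in tdT+ to between 717 and 948 in tdT- libraries (log2 0.82 ± 0.22 SE, adjusted p = 0.00450), and the TRiC subunits Cct7 and Cct5 rose by 0.46 ± 0.12 and 0.52 ± 0.15 (adjusted p = 0.00513 and 0.00944). The edgeR test called 0 of the 14 in all comparisons, with an adjusted p of 0.0769, 0.0709 and 0.0837 for these 3 genes. Without the tdT- library F2, 4 genes rose between the populations, where 7.67% of all genes were called. In tdT- cells against vehicle 3 then rose and 1 fell, where 8.25% were called. The gene that fell, the prefoldin subunit Pfdn5 (log2 -0.55 ± 0.15, adjusted p = 0.00496), then also fell in BLZ945 tdT+ cells against vehicle (log2 -0.54 ± 0.14, adjusted p = 0.00941). The library F2 belongs to neither group of that last comparison but enters the estimate of the spread.

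Immediate early genes, which are transcribed within minutes of a stimulus and are also read as a sign of handling, were also counted. Of 15 on the list, 4 rose in BLZ945 tdT+ cells against vehicle, where 0.961% of all genes were called, and 6 rose in tdT- cells against vehicle, where 6.81% were called. In both 0 fell, and edgeR called 4 and 5 of the 15, with 0.0656% and 3.25% of all genes called. Zfp36, which destabilises cytokine transcripts, rose from between 2342 and 3120 normalised counts in vehicle to between 6750 and 9183 in BLZ945 tdT+ libraries (log2 1.51 ± 0.14 SE, DESeq2 adjusted p = 1.95e-23, edgeR adjusted p = 7.39e-04). The AP-1 subunit Jun rose by 1.64 ± 0.16 and its partner Fos by 2.43 ± 0.31 on the log2 scale (adjusted p = 1.45e-19 and 6.74e-12). In tdT- cells against vehicle the same 3 genes led, with log2 fold changes of 1.505 ± 0.14, 1.33 ± 0.16 and 2.27 ± 0.31. The median of the list was 0.54 and 0.80 in these comparisons, beside 0.03 for all genes. Between the populations of BLZ945 mice, where 6.54% of all genes were called, 1 of 15 rose in tdT- cells. This was Junb (log2 0.89 ± 0.23, DESeq2 adjusted p = 0.00450), which edgeR did not call (adjusted p = 0.0565). Without F2 the counts against vehicle were 5 and 7, and 1 between the populations, with 1.58%, 8.25% and 7.67% of all genes called. The tdT- library F2 belongs to neither group of the first of these comparisons but enters the estimate of the spread.

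Genes with the most similar pattern to Hspa1a and Hspa5 over the 12 libraries were looked up as a description, among 9581 other genes whose normalised counts averaged 100 or more. The gene most like Hspa1a was Dnaja1, another J-domain partner of Hsp70 (Pearson's r = 0.901), followed by Cpeb2 (0.899), Trip12 (0.885) and Mmgt1 (0.862). Vehicle F1 was the lowest of the 12 libraries for Hspa1a, at 5 counts, and for all these genes. How far this library carries the correlations was not tested. Dnaja1 had 1467 normalised counts in vehicle F1 and 4062 in vehicle M2, the same libraries in which Hspa1a was lowest and highest. For Hspa5 they were Dusp1, an immediate early phosphatase (0.928), Kcnk6 (0.926), Rbm39 (0.907), Gpd1l (0.897) and Chaserr (0.892). Dusp1 had between 287 and 586 normalised counts in vehicle libraries and between 1144 and 3879 in BLZ945 libraries, where F2 was the lowest of its group in both populations, as it was for Hspa5. The libraries share groups, depth and mice, so these correlations carry no test.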

How the data were processed

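Bulk RNA-seq of sorted brain macrophages was analysed from 1 table of raw read counts per gene deposited by the authors. Per the labels, libraries were made from about 500 pg of RNA with the SMART-Seq mRNA LP kit, which amplifies by PCR. The submitters' processing notes name bcl2fastq 2.20, STAR 2.7.11a, featureCounts 2.0.6 and DESeq2 1.46.0, and per the file headers counting was over exons by gene name, unstranded and without multi-mapping reads, on GRCm39.

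A gene was removed where 75% or more of the libraries had under 10 counts of it, which left 13724 of 56735. The main test was the Wald test of DESeq2 1.42.0 over all 12 libraries by group, with shrinkage by apeglm 1.24.0 and Benjamini-Hochberg adjustment (R 4.3.3). A gene was called at an adjusted p of at most 0.05. The alternative test was edgeR 4.0.16 (quasi-likelihood, TMM). Normalised counts are counts divided by DESeq2 size factors, and scores used a pseudocount of 1. The scripts were tested on simulated data.

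Members and gene lists were chosen with earlier results of these data known. All 10 members are described, and from each other list the counts called and the 3 called genes with the smallest adjusted p per comparison are named. Other genes, such as those holding a motif, were named after their values were seen. For Hspa1a and Hspa5 the rule takes the 5 most correlated genes. Of the genes these rules take, 1 from a list and 1 by correlation are not reported here.

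The 12 libraries held 19969308 to 23395058 counts, and intervals cover the spread between these libraries only. Each library of a group came from its own mouse. One vehicle column carries another label than the sample that owns its library number, and it was assigned by that number. A tdT+ and a tdT- library with the same label came from the same mouse, and their deviations from the group means correlated at 0.0115, 0.0331, 0.0171 and 0.0375 over 9591 genes. Vehicle and BLZ945 tdT+ libraries shared a label only, with correlations from 0.0178 to 0.0668. Alternatives were another test or normalisation, no filter, the letter or mouse label as a term, only the groups compared, and each library left out. The edgeR fits with the mouse label or without the tdT- library F2 were added after seeing the data.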

Additional observations from a re-analysis of the deposited data

Results flagged for a closer look

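Of 60 groups of 4 values tested for a sample far from the others (Dixon's ratio of gap to range, at its 95% critical value), 6 were flagged, and chance flags about 1 in 20. Hspa5 had 31926.9 normalised counts in the tdT- library F2, against 42877 to 44734 in the other 3. Hsp90aa1 had 3588 normalised counts in the BLZ945 tdT+ library M1, against 2254 to 2309 in the others. Hspd1 had 4089.36 normalised counts in the BLZ945 tdT+ library F1, against 3202 to 3248. Summed neutrophil markers reached 21953.9 CPM in the tdT- library F2, against at most 0.968 CPM in the other tdT- libraries, and 2.66614 CPM in the tdT+ library of the same mouse, against at most 0.200 CPM in the other BLZ945 tdT+ libraries. Summed microglia markers were at 2363.94 CPM in the vehicle library M2, against 3557 to 3759 CPM in the other vehicle libraries.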

How the results depend on the processing

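Of 610 log2 fold changes of members under alternatives, 559 kept their direction and their side of the threshold, 3 were no longer called, 2 became called and 46 reversed, 37 of them on leaving out 1 library. The smallest adjusted p of a reversed value was 0.682. With edgeR 0 members were called in each comparison with vehicle, and over all genes it called 377, 9 and 446 where DESeq2 called 875, 131 and 928 (tdT- against tdT+, tdT+ against vehicle, tdT- against vehicle). Without the filter 1 member, Hspe1, was called between tdT- and tdT+ cells, and 256 genes between tdT+ cells and vehicle. With only the 8 libraries compared, 325 genes were called in the latter. With the mouse label as a replicate block, 0 members were called in tdT- cells against vehicle, where only the label is shared (Hspa5 adjusted p = 0.0701), 389 genes were called in tdT+ cells against vehicle, and between both populations of the same mice 0 members and 989 genes were called, or 86 genes by edgeR with the block. The block changed no other member's call. Leaving out each library gave 1 to 2 members called in tdT- cells against vehicle, the higher count without the tdT- library F2. Hspa5 kept its calls then, at 0.53 to 0.67 in tdT+ and 0.37 to 0.53 in tdT- cells. Without Hspa1a and Hspa1b, inducible minus constitutive members averaged -2.37 in vehicle, -2.33 in BLZ945 tdT+ and -2.30 in tdT- libraries.

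Between tdT- and tdT+ cells, Hsp90ab1 reversed to -0.0012 with edgeR and -0.0012 with TMM in DESeq2, and Dnajb1 to -0.018 with either, -0.025 with the letter, -0.054 with the block and -0.066 with the block in edgeR. Hspa1a against vehicle in tdT- cells reversed to 0.76 with the block and 0.10 in edgeR without F2. With 1 library left out, the values between tdT- and tdT+ cells ranged from -0.45 to 1.04 for Hspa1b, -0.0088 to 0.25 for Hspa8, -0.11 to 0.22 for Hsp90ab1, -0.28 to 0.20 for Dnajb1, -0.24 to 0.40 for Hsph1 and -0.25 to 0.023 for Hspd1. In tdT+ cells against vehicle they ranged from -0.10 to 1.12 for Hspa1a, -0.29 to 1.41 for Hspa1b, -0.082 to 0.47 for Hsph1, -0.13 to 0.093 for Hspd1 and -0.22 to 0.013 for Hspe1. In tdT- cells against vehicle they ranged from -0.66 to 0.70 for Hspa1a, -0.0098 to 0.47 for Dnajb1, -0.018 to 0.62 for Hsph1 and -0.26 to 0.0041 for Hspd1. The cause of these changes was not tested. Depth limits Hspa1a most, where 3 counts correspond to 2.60 to 3.16 normalised counts.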
